A study of Mus musculus with 16 samples.

Results

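Skeletal muscle transcripts stood high in 4 of the 8 CIN tumour libraries of this mouse colorectal tumour series and low in the other 4, and the report compares those libraries. The muscle-rich libraries were CIN free 2, MSI free 2, MSI micronuclei 1 and MSI micronuclei 2, and the muscle-poor ones were CIN free 1, CIN micronuclei 1, CIN micronuclei 2 and MSI free 1. In each name the first word is the source of the DNA given to the dendritic cells and the number is the replicate. They are 8 of 16 libraries in all, the rest being MSI tumours. The libraries were divided by the measured levels of Acta1, Myh4 and Myh1, so the levels of muscle genes are given as a description without a test. The summed level of these 3 genes, in CPM of the library total, was 69.99 in MSI free 2, the lowest of the muscle-rich libraries, and 9.03 in CIN free 1, the highest of the muscle-poor ones.

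All 8 tumours were grown by placing MC38 cells of the CIN (chromosomal instability) type in the wall of the descending colon of C57BL/6 mice; MC38 is a mouse colon carcinoma line. Bone marrow derived dendritic cells were injected into the peritoneum on days 1, 6 and 12, and tumours were taken on day 15. The dendritic cells had been held for 30 minutes with 2 µg of DNA and Lipofectamine, a lipid carrier. The DNA had been taken from MSI (microsatellite instability) or from CIN cells. It was given free, as cytosolic DNA, or in micronuclei, small membrane-bound bodies that hold chromosome pieces outside the nucleus. RNA of 3 biological replicates was pooled in equal parts before sequencing. A control with dendritic cells that had received no DNA was not analysed here. The muscle-rich group holds 3 MSI-DNA libraries and 1 CIN-DNA library, against 1 and 3 in the muscle-poor group. Among micronuclei libraries the division is the same as that by DNA source, and among free DNA libraries it is the same as that by replicate number, so the effects of muscle content cannot be told apart from these labels there. Whether each library is a separate pool is not stated, so p-values measure the spread between libraries, which may be technical.

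Skeletal muscle fibres are packed with sarcomeres, in which myosin thick filaments pull on actin thin filaments between Z discs held in register by titin. Calcium released from the sarcoplasmic reticulum through the ryanodine receptor starts contraction, and a calcium pump ends it. Fast fibres use their own myosin heavy chains, troponins, pump and parvalbumin, whereas slow fibres share several sarcomere genes with the heart. The colon wall itself holds smooth muscle, whose contractile proteins come from other genes.

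The promoters of a fast myosin gene, the skeletal actin gene and the muscle creatine kinase gene are shown because these genes are among those that set the groups of libraries apart. They run from 250 bases before to 50 bases after the RefSeq start (GRCm38.p6), 5′ to 3′, and RefSeq starts can differ from the gene starts of the deposited table. Capitals mark E-boxes (CANNTG, bound by the MyoD family), TATAAA, the MEF2 site and the CArG box, the last a site of serum response factor.
Acta1, chr8:123894726-123895025, minus strand: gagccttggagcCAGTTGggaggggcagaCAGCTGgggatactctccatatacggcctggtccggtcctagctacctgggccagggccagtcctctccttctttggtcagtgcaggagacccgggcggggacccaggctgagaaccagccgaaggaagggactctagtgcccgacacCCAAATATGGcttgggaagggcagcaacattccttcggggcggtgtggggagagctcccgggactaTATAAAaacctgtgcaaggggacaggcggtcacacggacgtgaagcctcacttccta
Myh4, chr11:67237562-67237861, plus strand: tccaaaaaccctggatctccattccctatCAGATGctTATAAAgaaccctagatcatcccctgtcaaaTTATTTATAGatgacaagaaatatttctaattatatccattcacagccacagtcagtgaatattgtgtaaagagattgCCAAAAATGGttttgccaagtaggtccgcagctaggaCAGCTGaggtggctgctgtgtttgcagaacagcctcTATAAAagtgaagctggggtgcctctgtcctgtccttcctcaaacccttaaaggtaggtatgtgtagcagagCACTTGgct
Ckm, chr7:19410844-19411143, plus strand: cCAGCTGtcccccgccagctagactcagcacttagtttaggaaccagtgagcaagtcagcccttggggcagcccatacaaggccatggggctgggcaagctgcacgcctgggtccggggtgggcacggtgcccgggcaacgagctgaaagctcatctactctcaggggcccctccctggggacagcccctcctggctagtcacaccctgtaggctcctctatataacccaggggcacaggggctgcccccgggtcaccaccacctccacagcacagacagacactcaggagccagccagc

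Motifs were searched on both strands, and in Myh4 the MEF2 site overlaps a TATAAA read on the other strand. Of 82 genes on the 5 skeletal muscle lists, 59 had a promoter in the RefSeq table, 72 promoters in all. A MEF2 site was in 19.4% of these windows, against 3.19% of all 32851 promoters. A CArG box was in 8.33% of the muscle windows, against 1.63% of all. TATAAA was in 16.7% of the muscle windows, against 13.6% of all. E-boxes, a short motif found in most windows, were in 86.1% of the muscle windows and 72.3% of all. Among the 14745 promoters of genes tested further on, the MEF2 site was in 1.76% and the CArG box in 1.35%. TATAAA was in 8.02% of these and E-boxes in 65.1%.

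Levels below are CPM (counts scaled to a common library size with TMM factors), and library values follow the order in which the libraries were listed above. Of the 82 skeletal muscle genes, 44 were higher in every muscle-rich library than in any muscle-poor one, 2 were lower and 36 overlapped; 63 passed the filter on low counts. Over all 16326 genes tested, 15.0% were higher and 9.46% lower without overlap, but the muscle genes chose the libraries, so nothing is read from that difference.

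Acta1 (ENSMUSG00000031972, chromosome 8, 123891769 to 123894751, GRCm38) encodes skeletal alpha-actin of the thin filament. Its level was 98.0, 51.3, 81.7 and 59.1 CPM in the muscle-rich libraries, against 5.92, 3.34, 3.36 and 2.34 CPM in the muscle-poor ones. The means were 72.5 ± 21.3 and 3.74 ± 1.53 CPM (SD, n = 4 each), a 19.4-fold difference. Per length, the level of Acta1 was 45.2 FPKM in muscle-rich and 2.42 FPKM in muscle-poor libraries on average, that of Atp2a1, a calcium pump described further on, 8.46 and 0.182 FPKM, and that of Myh4 5.65 and 0.102 FPKM. On this scale Acta1 was the highest of these 3 genes in both groups.

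The fast myosin heavy chain genes Myh4 and Myh1 lie near each other on chromosome 11 (67238029 to 67260446 and 67200052 to 67224575). Myh4, which encodes the IIb chain, stood at 44.0, 8.09, 37.9 and 52.4 CPM in the muscle-rich libraries. In the muscle-poor libraries it was at 2.50 CPM in CIN free 1 and at 0 in the other 3. Myh1, the IIx chain, stood at 18.8, 11.2, 28.0 and 17.2 CPM in muscle-rich libraries, against 0.380 CPM in CIN free 1 and 0 in the others. CIN free 1 was the only muscle-poor library with counts of these 2 genes, and MSI free 2 had the least Myh4 of the muscle-rich libraries. Myh2, the IIa chain of fast fibres, was at 6.15 to 8.45 CPM in muscle-rich libraries. It had counts in every muscle-poor library, at 0.326, 0.163, 1.25 and 0.453 CPM. Myh7, the heavy chain of slow and cardiac fibres, had 0 counts in all 8. The heavy chain genes resemble each other in sequence, and how reads shared between them were counted is not stated. Myh2 and Myh7, like Colq and Myh6 further on, were named after their values were seen.

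The fast light chains were also apart. Mylpf, the fast regulatory light chain, averaged 14.7 ± 3.83 CPM in muscle-rich and 0.801 ± 0.590 CPM in muscle-poor libraries (SD, n = 4 each). Myl1, the fast essential light chain, averaged 13.0 ± 5.78 and 0.206 ± 0.270 CPM in those groups. Of the 15 thick filament genes 10 were higher without overlap. Myom1, an M-band protein, was an exception, with 9.33 to 20.6 CPM in muscle-rich and 12.5 to 21.6 CPM in muscle-poor libraries.

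Among the 11 thin filament genes 6 were higher and 1 lower without overlap. Tnnt3 and Tnni2, the fast troponins T and I, averaged 21.6 ± 8.83 and 9.51 ± 3.15 CPM in muscle-rich libraries, against 2.64 ± 1.86 and 1.39 ± 0.796 CPM in muscle-poor ones (SD, n = 4 each). Neb encodes nebulin, which spans the thin filament; it had 12.8 to 19.3 CPM in muscle-rich and 2.42 to 3.801 CPM in muscle-poor libraries. The slow troponin I gene Tnni1 ran the other way, at 8.28, 6.48, 8.56 and 10.3 CPM in muscle-rich libraries, against 13.7, 16.4, 19.7 and 22.6 CPM in muscle-poor ones. Fast and slow troponin I were thus ordered oppositely in the same libraries. The slow troponin T and C genes Tnnt1 and Tnnc1, named after their values were seen, overlapped. Their means were 0.753 and 2.27 CPM in muscle-rich libraries, against 0.752 and 1.65 CPM in muscle-poor ones. The fast troponin C gene Tnnc2, also named after its values were seen, did not follow the fast troponins T and I. It had 3 counts over the muscle-rich and 4 over the muscle-poor libraries, and the groups overlapped.

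Of 22 genes of titin, the Z disc and sarcomere chaperones 13 were higher without overlap. Ttn, which encodes titin, stood at 44.2, 31.7, 27.1 and 28.6 CPM in muscle-rich libraries and at 4.29, 2.04, 2.37 and 0.453 CPM in muscle-poor ones. Actn3, the alpha-actinin of fast fibres, averaged 17.6 ± 6.32 and 0.550 ± 0.653 CPM in those groups (SD, n = 4 each). Xirp2, a Z disc adaptor named here after its values were seen, had 386 counts in the muscle-rich libraries and 4 in the muscle-poor ones. Nrap, Hspb7 and Ldb3 overlapped, with means of 6.77, 6.77 and 6.73 CPM in muscle-rich libraries against 7.17, 6.71 and 8.37 CPM in muscle-poor ones.

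Of 18 genes of calcium release and excitation 8 were higher without overlap. Atp2a1, the calcium pump of fast fibres, stood at 32.9, 21.6, 31.9 and 36.5 CPM in muscle-rich libraries, against 1.19, 0.326, 0.436 and 0.604 CPM in muscle-poor ones. Ryr1, the calcium release channel, averaged 10.3 ± 4.40 and 1.21 ± 0.564 CPM (SD, n = 4 each). Pvalb, which buffers calcium in fast fibres, was uneven: 2.57, 1.31, 16.8 and 8.14 CPM in muscle-rich libraries, against 1.47, 0, 0 and 0 CPM. Both micronuclei libraries had more Pvalb than either free DNA library of the muscle-rich group. Cacna1s, the voltage sensor of the muscle membrane, also named after its values were seen, had 109 counts in muscle-rich libraries and 0 in muscle-poor ones, at least 37.1-fold higher against a floor of 3 counts over the group. Jph2 overlapped, with 3.25 to 18.8 CPM in muscle-rich and 11.3 to 21.8 CPM in muscle-poor libraries.

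The muscle energy enzymes did not all follow. Of 16 genes 7 were higher without overlap, 1 was lower and 8 overlapped, and their summed level was 179 to 209 CPM in muscle-rich libraries and 200 to 233 CPM in muscle-poor ones. Ckm, muscle creatine kinase, stood at 18.3, 9.46, 13.4 and 17.0 CPM in muscle-rich libraries, against 1.47, 2.12, 2.43 and 1.74 CPM. Pygm, muscle glycogen phosphorylase, averaged 10.8 ± 2.95 and 4.44 ± 1.05 CPM in these groups (SD, n = 4 each). Eno3, the muscle enolase, was the lower gene, at 77.5 to 87.0 CPM in muscle-rich and 103 to 127 CPM in muscle-poor libraries. Fbp2, muscle fructose bisphosphatase, overlapped, at 11.9, 13.2, 0.856 and 20.99 CPM in muscle-rich libraries against 14.3, 27.7, 38.4 and 34.2 CPM.

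**Figure D1:**
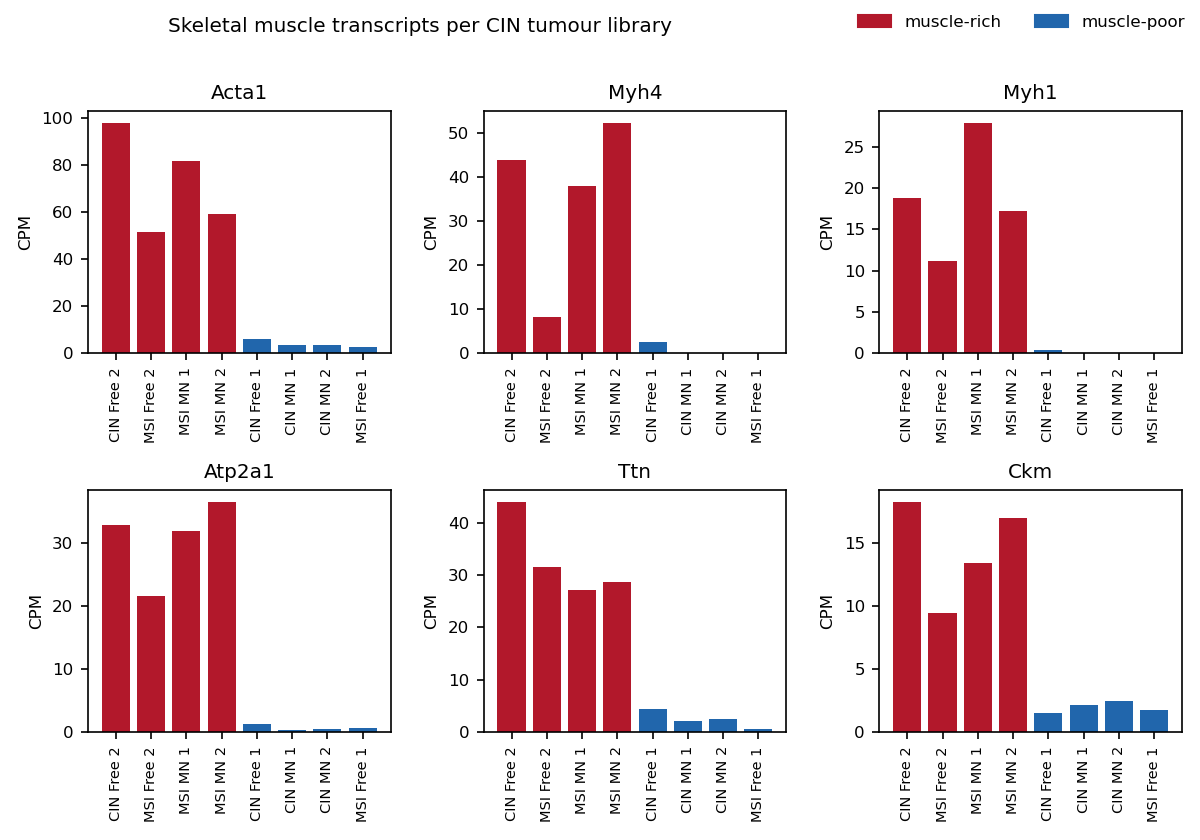
Level of 6 skeletal muscle genes in each CIN tumour library (CPM with TMM scaling, 1 bar per library, MN for micronuclei, red muscle-rich and blue muscle-poor). Acta1 ran from 51.3 to 98.0 CPM in muscle-rich libraries and from 2.34 to 5.92 CPM in muscle-poor ones, and Myh4 was at 0 in 3 muscle-poor libraries.

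Most genes of regenerating muscle, of the nerve-muscle junction and of the heart overlapped between the groups. Of the 42 genes on these 4 related lists 5 were higher, 3 lower and 34 overlapping. Over all genes tested 15.0% were higher and 9.46% lower without overlap. Only 17 of the 42 passed the filter on low counts. Genes at 0 in all 8 libraries, such as Myf5 and Myh6, count as overlapping. The 5 higher genes were Myf6, Myod1, Chrng, Myh3 and Myh8, and none of them passed that filter. Myf6 and Myod1, factors of the MyoD family, had 31 and 23 counts in the muscle-rich libraries, against 0 and 2 in the muscle-poor ones. Chrng, an acetylcholine receptor subunit named after its values were seen, had 14 counts against 0. The satellite cell genes Pax7 and Myf5, the second named after its values were seen, had 1 and 0 counts over the muscle-rich libraries and 0 over the muscle-poor ones. Myog, a differentiation factor, had 29 counts in the muscle-rich libraries, none of them in MSI micronuclei 2, and 0 in the muscle-poor ones. Myh3, the embryonic heavy chain, had 2.20, 3.63, 1.28 and 0.163 CPM in muscle-rich libraries, against 0, 0, 0.0623 and 0 CPM. Myh8, the perinatal chain, named after its values were seen, had 85 counts in muscle-rich libraries and 0 in muscle-poor ones, at least 28.9-fold higher against a floor of 3 counts over the group. The cardiac heavy chain Myh6 had 0 counts in all 8 libraries. Tnnt2, cardiac troponin T, was abundant in both groups, at 262 to 358 CPM in muscle-rich and 182 to 347 CPM in muscle-poor libraries.

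Of the 11 genes on the muscle atrophy list none was higher without overlap, 1 was lower and 10 overlapped. Fbxo32, which encodes the ubiquitin ligase atrogin-1, stood at 35.4, 46.5, 13.9 and 38.2 CPM in muscle-rich libraries, below each of the 47.2, 65.4, 81.9 and 69.5 CPM of muscle-poor ones. Trim63, which encodes the ligase MuRF1, had 1.32, 1.25, 0.0856 and 0.325 CPM in muscle-rich libraries and 0 to 0.498 CPM in muscle-poor ones. The groups overlapped, with means of 0.744 and 0.152 CPM. In MSI tumour CIN micronuclei 1, an MSI library high in muscle described further on, Trim63 had 64 counts, against 0 or 1 in the other MSI libraries. Fbxo32 was lowest there, at 29.0 CPM of the library total, against 35.7 to 114 in the others. The nerve-muscle junction gene Chrnb1 overlapped, with 11.5 to 12.7 CPM in muscle-rich and 6.80 to 12.6 CPM in muscle-poor libraries. Colq, which anchors acetylcholinesterase at the junction, was lower without overlap, at 0.125 to 0.488 CPM in muscle-rich libraries against 0.756 to 1.85 CPM.

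What else followed muscle content was asked of the genes off these lists, by edgeR's quasi-likelihood test with Benjamini-Hochberg adjustment at 0.05 over all genes tested. Since the libraries were divided on measured values, an adjusted p states how closely a gene went with that division, not with an assigned treatment. Of 16246 genes off the lists 1785 rose and 781 fell in the muscle-rich libraries. Over all 16326 genes 1820 were called higher (11.1%) and 784 lower (4.80%), and 50.2% of fold changes were negative with a median of -0.0022 on the log2 scale. Adding the labelled group to the model left 2 genes called. That fit estimates the division from the free DNA libraries alone, since each micronuclei group is wholly muscle-rich or wholly muscle-poor. Leaving out 1 library at a time gave between 981 and 2855 called genes.

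The 10 largest rises among protein-coding genes without overlap were led by Cmya5, a partner of sarcomere proteins in striated muscle that was on no list. It stood at 4.45, 4.88, 4.54 and 1.63 CPM in muscle-rich libraries, against 0.434, 1.39, 0.685 and 0.151 CPM in muscle-poor ones (log2 fold change 2.56 ± 0.57 SE). As a muscle gene it is given without a test. Mmp8, the neutrophil collagenase, stood at 3.70, 7.14, 3.08 and 3.58 CPM, against 0.869, 1.39, 0.685 and 0.604 CPM (2.31 ± 0.39 SE, edgeR adjusted p = 0.00652). Angptl4, a secreted inhibitor of lipoprotein lipase, averaged 40.5 ± 14.3 CPM in muscle-rich and 12.5 ± 3.35 CPM in muscle-poor libraries (SD, n = 4 each; edgeR adjusted p = 0.0120). Acvr2b, the receptor through which activins and myostatin signal, averaged 6.22 ± 1.58 and 2.06 ± 0.801 CPM (edgeR adjusted p = 0.0145). Hipk2, a nuclear kinase, averaged 20.0 ± 3.95 and 6.89 ± 2.60 CPM (edgeR adjusted p = 0.00584). The other large rises were in Klhl11, Gm9938, Fbxo48, Tmppe and Srcap, with log2 fold changes of 1.39 to 1.59. Srcap no longer passed once gene length was fitted (edgeR adjusted p = 0.0709), while the other 8 of the tested genes did.

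Of the 10 largest falls, chosen by the same rule, Il22ra2 had the lowest log2 fold change. Il22ra2, which encodes the soluble inhibitor of interleukin-22, stood at 0.439, 0.714, 0 and 1.14 CPM in muscle-rich libraries, against 8.42, 3.02, 8.16 and 3.55 CPM in muscle-poor ones (log2 fold change -3.31 ± 0.68 SE, edgeR adjusted p = 0.0143). Ascl2, a transcription factor of intestinal stem cells, averaged 0.657 ± 0.420 and 4.27 ± 1.30 CPM (SD, n = 4 each; edgeR adjusted p = 0.00628). Mmrn1, made by platelets and endothelium including lymphatic vessels, averaged 0.453 ± 0.304 and 4.60 ± 3.23 CPM (edgeR adjusted p = 0.0211). Stmn2, a neuronal microtubule regulator, averaged 0.925 ± 0.706 and 5.27 ± 1.65 CPM (edgeR adjusted p = 0.00911). Ppp1r14a, an inhibitor of myosin phosphatase in smooth muscle, averaged 1.40 ± 1.11 and 8.38 ± 2.15 CPM (edgeR adjusted p = 0.0168). 2310079G19Rik, Cd79a, Gdf10, Blk and Wfdc1 completed the list, with log2 fold changes of -3.29 to -2.41. Cd79a, Blk and Wfdc1 no longer passed once gene length was fitted (edgeR adjusted p = 0.0526, 0.0593 and 0.0527).

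Colon epithelium genes were lower in the muscle-rich libraries on average, but none of the 22 passed the test (edgeR, with 2 at an unadjusted p under 0.05; 0 with the gene length offset, 2 lower by DESeq2 and 2 lower without MSI micronuclei 1). All 22 had a negative log2 fold change, with a median of -1.43. Their mean log2 CPM was 6.88, 6.84, 2.83 and 7.53 in muscle-rich libraries, against 7.25, 7.93, 8.60 and 8.35 in muscle-poor ones. MSI micronuclei 1 stood far below every other library, and without it the median was -1.07. Epcam, an adhesion molecule of epithelial cells, had 227, 254, 12.3 and 365 CPM in muscle-rich libraries and 264, 493, 704 and 672 CPM in muscle-poor ones. Muc2, the goblet cell mucin, had 1456, 1177, 15.2 and 1077 CPM in muscle-rich libraries, against 629, 1289, 2373 and 1582 CPM. Car4 and Aqp8, a carbonic anhydrase and a water channel of absorptive cells, did not overlap, at 12.2 to 167 and 3.34 to 94.2 CPM in muscle-rich libraries against 246 to 404 and 119 to 240 CPM. In tissue libraries such as these, fewer cells of a type and less RNA per cell cannot be told apart.

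Smooth muscle genes were lower on average in the muscle-rich libraries. Of 16 smooth muscle genes tested 15 had a negative log2 fold change, with a median of -1.16. There was 1 call in each direction, where 11.1% of all genes rose and 4.80% fell. Myh11, the smooth muscle heavy chain, stood at 82.6, 67.9, 3.34 and 315 CPM in muscle-rich libraries, against 259, 290, 359 and 237 CPM in muscle-poor ones (edgeR adjusted p = 0.419). MSI micronuclei 2 had as much Myh11 as the muscle-poor libraries, and MSI micronuclei 1 almost none. Ckb, brain-type creatine kinase, fell, with 13.1 to 39.0 CPM in muscle-rich and 45.4 to 68.9 CPM in muscle-poor libraries (edgeR adjusted p = 0.0410, or 0.0670 with the gene length offset). Cald1, caldesmon, rose, with 661 to 698 CPM against 478 to 568 CPM (edgeR adjusted p = 0.0145), and its log2 fold change was 0.36, or 0.11 with the gene length offset, where the adjusted p was 0.376. No smooth muscle gene was called with the offset.

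Markers of other tissues were looked at beside the fibre genes, and those of fat and tendon were sparse. The fat hormone gene Adipoq had 0.251, 0, 0 and 0.0814 CPM in muscle-rich libraries and 0 to 1.495 CPM in muscle-poor ones, and of 4 fat cell genes tested none passed (edgeR, with 1 at an unadjusted p under 0.05, and none by DESeq2). Tnmd, a tendon marker, had at most 0.314 CPM in muscle-rich and 0.109 CPM in muscle-poor libraries, and of 5 tendon genes tested none passed or had an unadjusted p under 0.05. Of 11 nerve and glia genes 2 fell, both Schwann cell genes. Pmp22 averaged 184 ± 24.4 and 264 ± 39.3 CPM (SD, n = 4 each, adjusted p = 0.0235 by edgeR), and Sox10 averaged 0.243 ± 0.204 and 1.40 ± 0.690 CPM (edgeR adjusted p = 0.0347). Neither passed with the gene length offset. Of 16 endothelial genes 1 fell, Plvap of fenestrated vessels, with 27.4 ± 6.04 CPM in muscle-rich and 39.0 ± 3.76 CPM in muscle-poor libraries (SD, n = 4 each). Without MSI micronuclei 1, and likewise with the gene length offset, no endothelial gene was called, and over all genes 4.80% fell. Among 16 fibroblast and matrix genes 1 fell and 1 rose, where 4.80% and 11.1% of all genes did. Thy1 fell (24.4 to 32.3 CPM against 36.0 to 45.4 CPM). Fn1, fibronectin, rose, with 1664 and 1227 CPM on average. The groups of libraries overlapped for Fn1 (1345 to 1899 CPM against 1087 to 1429 CPM), and its edgeR adjusted p was 0.208 with the gene length offset. Red cell, mesothelial and stratified epithelial lists held no called gene among 5, 6 and 3 tested by edgeR or DESeq2, with 0, 1 and 0 at an unadjusted p under 0.05.

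B and plasma cell genes had the lowest median of the lists. All 11 had a negative log2 fold change, with a median of -2.10, and 3 fell, where 4.80% of all genes did. Cd22, an inhibitory receptor of B cells, stood at 3.45, 5.83, 1.54 and 2.77 CPM in muscle-rich libraries, against 19.5, 7.99, 17.4 and 9.90 CPM in muscle-poor ones (log2 fold change -2.00 ± 0.42 SE, edgeR adjusted p = 0.0167). Cd79a, a signalling chain of the B cell receptor, averaged 2.81 ± 1.64 and 18.8 ± 10.3 CPM (SD, n = 4 each; edgeR adjusted p = 0.0279). Blk, a B cell kinase, averaged 0.767 ± 0.606 and 4.35 ± 2.01 CPM (edgeR adjusted p = 0.0382). Without MSI micronuclei 1, the lowest library for these genes too, 6 of the 11 fell.

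T cell genes were lower as well. Of 20, 19 had a negative log2 fold change, with a median of -0.65. In this list 6 fell, namely Cd4, Lck, Trbc2, Cd3d, Cd2 and Bcl11b, where 4.80% of all genes did. Cd4, the helper T cell coreceptor also found on some myeloid cells, stood at 2.13, 2.91, 1.03 and 2.85 CPM in muscle-rich libraries, against 7.93, 5.55, 6.79 and 3.78 CPM in muscle-poor ones (edgeR adjusted p = 0.0250). Lck, the kinase of the T cell receptor, averaged 7.67 ± 1.75 and 12.6 ± 1.72 CPM (SD, n = 4 each; edgeR adjusted p = 0.0352). Cd8a, the cytotoxic coreceptor, did not pass but did not overlap, with 13.0 to 19.7 CPM in muscle-rich and 21.3 to 25.4 CPM in muscle-poor libraries (edgeR adjusted p = 0.0649). None of 10 cytotoxic effector genes passed (edgeR, with 1 at an unadjusted p under 0.05, and 1 lower by DESeq2), and Gzmb, granzyme B, averaged 20.2 ± 5.27 and 22.8 ± 8.87 CPM. Ifng averaged 2.30 ± 0.155 and 2.88 ± 1.31 CPM (edgeR adjusted p = 0.554). With the gene length offset 2 of the 20 T cell genes and 1 of the 11 B cell genes fell.

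Genes of MHC class II, which presents antigen to helper T cells, were lower. Of 11, 6 fell and none rose, where 4.80% of all genes fell and 11.1% rose. The median log2 fold change was -0.39. H2-Ab1 (chromosome 17, 34263209 to 34269418) encodes the beta chain of I-A. It stood at 208, 230, 195 and 217 CPM in muscle-rich libraries, against 415, 320, 346 and 290 CPM in muscle-poor ones (log2 fold change -0.69 ± 0.11 SE, edgeR adjusted p = 0.00515). Cd74, the invariant chain, had 553 to 691 CPM in muscle-rich and 743 to 1115 CPM in muscle-poor libraries. H2-Eb1, H2-Aa, H2-DMb1 and H2-DMa also fell, with log2 fold changes of -0.68 to -0.38. Without MSI micronuclei 1 the count was again 6, and with the gene length offset it was 1. Ciita, the master regulator of these genes, averaged 19.5 ± 2.85 and 24.5 ± 5.09 CPM (SD, n = 4 each; edgeR adjusted p = 0.199).

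Few MHC class I and interferon response genes passed. Of 15 class I pathway genes H2-K1, Psmb10 and Psmb8 fell and Canx, the chaperone calnexin, rose. Over all genes 4.80% fell and 11.1% rose. H2-K1 averaged 1797 ± 134 and 2275 ± 189 CPM (SD, n = 4 each; edgeR adjusted p = 0.0316). Of 34 type I interferon response genes 3 fell, Ifi27, Irf7 and Oasl1, none rose and the median was -0.16. Irf7, a transcription factor that amplifies interferon, stood at 52.7, 55.4, 26.3 and 49.4 CPM in muscle-rich libraries, against 70.4, 83.2, 107 and 88.6 CPM. Isg15, Ifit1 and Oas3 did not pass (edgeR adjusted p = 0.335, 0.364 and 0.306). None of 20 interferon gamma response genes passed by edgeR or DESeq2, or had an unadjusted p under 0.05. With the gene length offset no gene of the class I or type I interferon lists was called. Cxcl9 and Cxcl10, which draw T cells, averaged 153 ± 21.9 and 167 ± 30.9 CPM in muscle-rich and 167 ± 21.7 and 181 ± 35.5 CPM in muscle-poor libraries.

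Of 16 macrophage and monocyte genes Mrc1 and Adgre1 rose and none fell, a share near the 11.1% of all genes that rose. In the list 9 genes had a positive and 7 a negative log2 fold change, with a median of 0.10. Mrc1, the mannose receptor, stood at 81.5, 101, 113 and 126 CPM in muscle-rich libraries, against 66.8, 62.2, 62.2 and 57.3 CPM in muscle-poor ones (log2 fold change 0.76 ± 0.12 SE, edgeR adjusted p = 0.00543). Adgre1, the F4/80 antigen, averaged 52.5 ± 7.73 and 34.6 ± 5.01 CPM (SD, n = 4 each; edgeR adjusted p = 0.0177). Both also rose with the gene length offset and without MSI micronuclei 1. No gene passed among 10 dendritic cell, 7 neutrophil and 3 mast cell genes tested by edgeR or DESeq2, with 1, 0 and 0 at an unadjusted p under 0.05. The neutrophil antigen Ly6g had 18.4, 18.02, 2.14 and 39.6 CPM in muscle-rich libraries and 38.1 to 72.4 CPM in muscle-poor ones. Most of the neutrophil list had the other sign, with 5 of 7 log2 fold changes positive and a median of 0.42. Trem1, a myeloid receptor that amplifies inflammation, had 6.25 to 12.3 CPM in muscle-rich and 5.16 to 7.42 CPM in muscle-poor libraries (edgeR adjusted p = 0.183). Of 22 cytokine and chemokine genes Ccl20, a gut chemokine for CCR6-bearing cells, fell (0.342 to 1.07 CPM against 2.04 to 4.13 CPM). Csf1, the macrophage growth factor, rose (215 to 295 CPM against 174 to 222 CPM), but the groups overlapped and it did not pass with the gene length offset (edgeR adjusted p = 0.0730) or without MSI micronuclei 1 (0.0727). Il6 was at 11.7, 5.41, 1.37 and 3.74 CPM in muscle-rich libraries, while a single muscle-poor library, MSI free 1, had 40.3 CPM (edgeR adjusted p = 0.561).

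**Figure D2:**
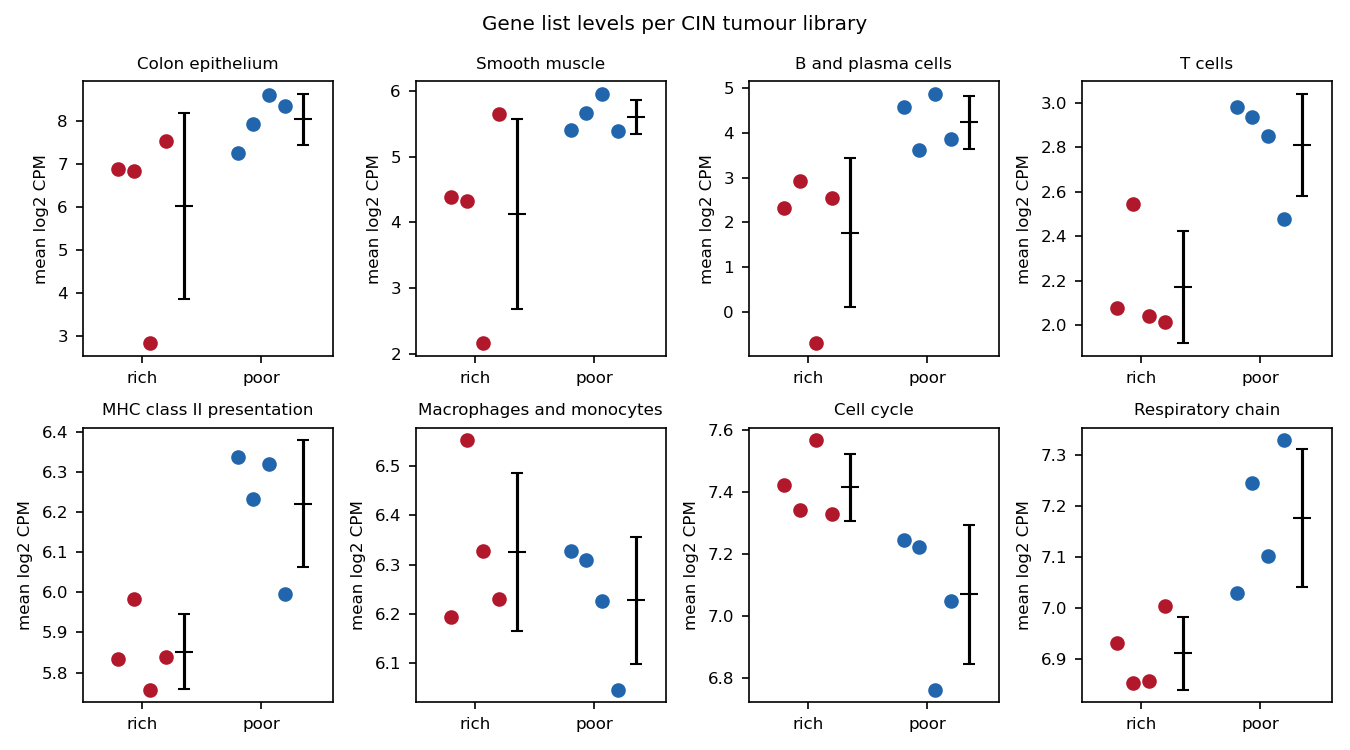
Mean log2 CPM of 8 gene lists in each CIN tumour library (1 point per library, red muscle-rich on the left, blue muscle-poor on the right, black mark and bar the mean ± SD of 4). The colon epithelium value of MSI micronuclei 1 was 2.83, against 6.84 to 7.53 in the other muscle-rich libraries, while the cell cycle values of all muscle-rich libraries lay above those of all muscle-poor ones.

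Cell cycle genes were higher in the muscle-rich libraries. Of 20, 19 had a positive log2 fold change, with a median of 0.41. In this list 10 rose and none fell, where 11.1% of all genes rose and 4.80% fell. Mki67 (chromosome 7, 135689784 to 135716361), which encodes the proliferation antigen Ki-67, stood at 640, 621, 622 and 588 CPM in muscle-rich libraries, against 442, 443, 384 and 400 CPM in muscle-poor ones (log2 fold change 0.57 ± 0.07 SE, edgeR adjusted p = 0.00358). Top2a, the topoisomerase of dividing cells, averaged 768 ± 35.5 and 518 ± 78.3 CPM (SD, n = 4 each; edgeR adjusted p = 0.00917). Rrm1, a subunit of ribonucleotide reductase, averaged 310 ± 20.9 and 215 ± 29.8 CPM (edgeR adjusted p = 0.0111). Ccnb1, Bub1, Bub1b, Mcm2, Mcm3, Mcm5 and Mcm6 also rose. The count was 6 with the gene length offset and 5 without MSI micronuclei 1.

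Genes that mark the CIN line were also higher, on a list chosen from earlier results on these libraries and so not independent evidence. All 8 had a positive log2 fold change, with a median of 0.48. Sh3tc2, Gm9732 and Dach2 rose, where 11.1% of all genes did. None of the 8 passed without MSI micronuclei 1. Ngfr, a nerve growth factor receptor, averaged 96.5 ± 18.8 CPM in muscle-rich and 62.7 ± 16.3 CPM in muscle-poor libraries (SD, n = 4 each; edgeR adjusted p = 0.0733). The tumour line genes and the colon epithelium genes thus had opposite signs in these libraries.

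Of 20 nuclear-encoded respiratory chain genes 19 had a negative log2 fold change, with a median of -0.22, and 9 fell. Cox5b of cytochrome oxidase stood at 70.1, 65.6, 62.2 and 67.5 CPM in muscle-rich libraries, against 81.8, 103, 93.9 and 120 CPM in muscle-poor ones (log2 fold change -0.59 ± 0.11 SE, edgeR adjusted p = 0.00925). Atp5o of ATP synthase averaged 38.9 ± 3.37 and 55.3 ± 2.49 CPM (SD, n = 4 each; edgeR adjusted p = 0.00608). Of 15 genes of fatty acid uptake and oxidation 5 fell, among them Acads and Acadm, which encode dehydrogenases of beta-oxidation. Of 12 mitochondrially encoded genes 1 fell, where 4.80% of all genes did. It was mt-Nd6 (383 ± 25.6 and 543 ± 81.6 CPM), and mt-Co1 averaged 8633 ± 995 and 9508 ± 1272 CPM (edgeR adjusted p = 0.441). None of 14 citric acid cycle genes and none of 20 hypoxia and glycolysis genes passed (edgeR, with 5 of each list at an unadjusted p under 0.05; by DESeq2 3 and 1 were lower and 0 and 1 higher). Vegfa averaged 395 ± 26.0 and 326 ± 59.0 CPM (edgeR adjusted p = 0.135). With the gene length offset 4 respiratory chain genes and 2 of fatty acid oxidation fell, and mt-Nd6 did not pass.

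Pdk4, a kinase that spares glucose in fasting muscle, stood at 4.89, 15.5, 1.03 and 2.60 CPM in muscle-rich libraries, against 0.326, 1.22, 1.62 and 0.453 CPM in muscle-poor ones (log2 fold change 2.74 ± 0.89 SE, edgeR adjusted p = 0.0741). The groups overlapped, and without MSI micronuclei 1 the adjusted p was 0.0340. Of 15 immediate early and heat shock genes 2 rose, and of 11 glucocorticoid-responsive and metallothionein genes 1 did, where 11.1% of all genes rose. Hsph1, a heat shock protein, rose (157 to 291 CPM in muscle-rich against 117 to 152 CPM in muscle-poor libraries), as did Jun and the glucocorticoid target Fkbp5 (121 to 157 CPM against 100 to 110 CPM). With the gene length offset Hsph1 and Fkbp5 did not pass (edgeR adjusted p = 0.0582 and 0.148), and without MSI micronuclei 1 Jun did not (0.0937). Of 20 cytosolic ribosomal protein genes none passed by edgeR or DESeq2 or had an unadjusted p under 0.05, and the median was 0.0016.

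**Figure D3:**
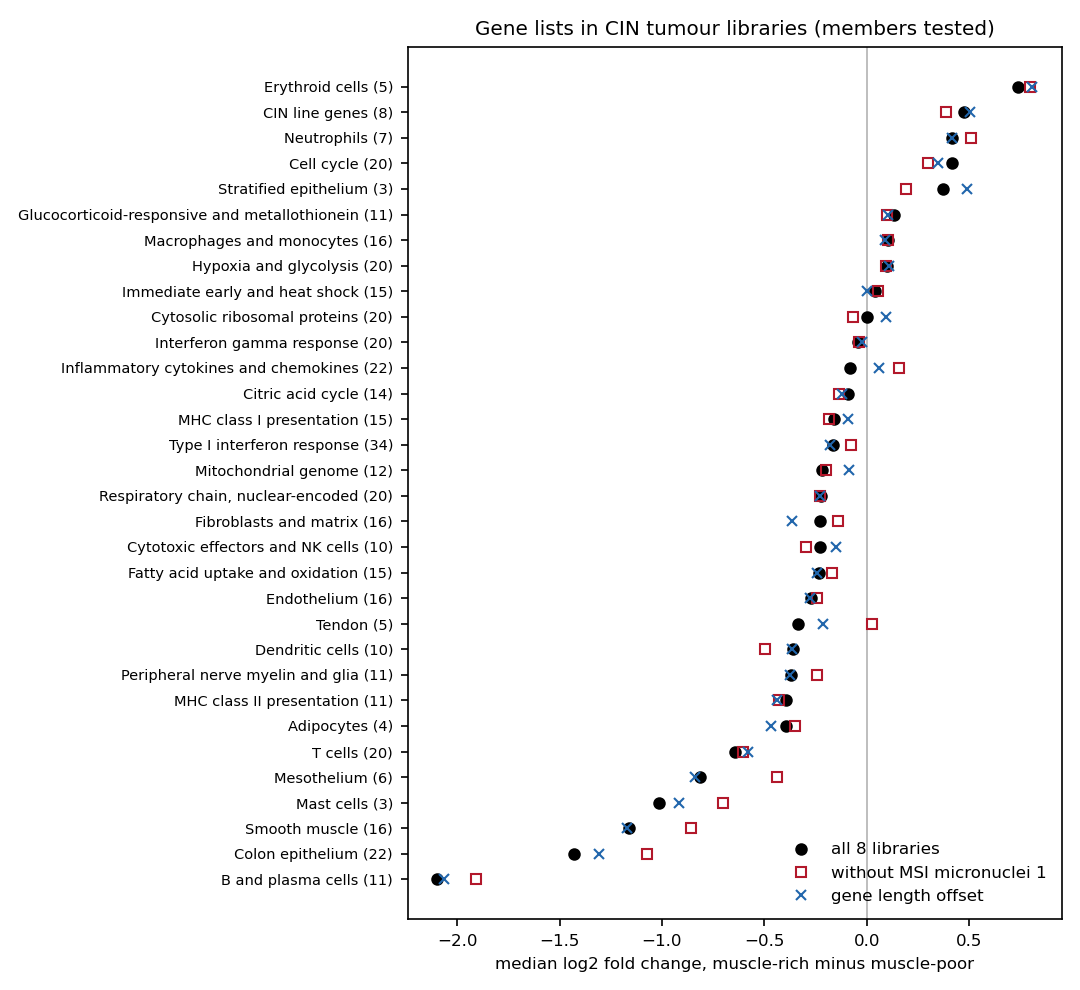
Median log2 fold change, muscle-rich minus muscle-poor, of each gene list off the muscle lists (number of tested members in brackets). Filled circles are the fit to all 8 libraries, open squares the fit without MSI micronuclei 1 and crosses the fit with a gene length offset; the B and plasma cell list stood lowest at -2.10 and the cell cycle list at 0.41.

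Gene length went with muscle content across all genes. Where the mean log2 CPM was 3 or more, the median log2 fold change was -0.16 in the shortest 10% and 0.28 in the longest. Of genes in the longest 10%, 45.0% were called higher and 0.894% lower, and of those in the shortest 10%, 1.43% were called higher and 11.7% lower. Off the muscle lists the median length was 7423 bases for the genes that rose and 2770 bases for those that fell, against 3904.5 bases for all tested genes off these lists. The median level of the longest 10% less that of the shortest was 0.267, 0.295, 0.0769 and 0.231 in the muscle-rich libraries on the log2 scale, relative to the mean of the 8. In the muscle-poor libraries it was -0.168, -0.306, 0.0027 and -0.420. CIN micronuclei 2 was thus the closest of the muscle-poor libraries to the muscle-rich ones. With an offset that removed the smooth dependence on length, 1428 genes were called (8.75%), 833 higher and 595 lower, and 1180 of these were among the 2604 called without it.

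**Figure D4:**
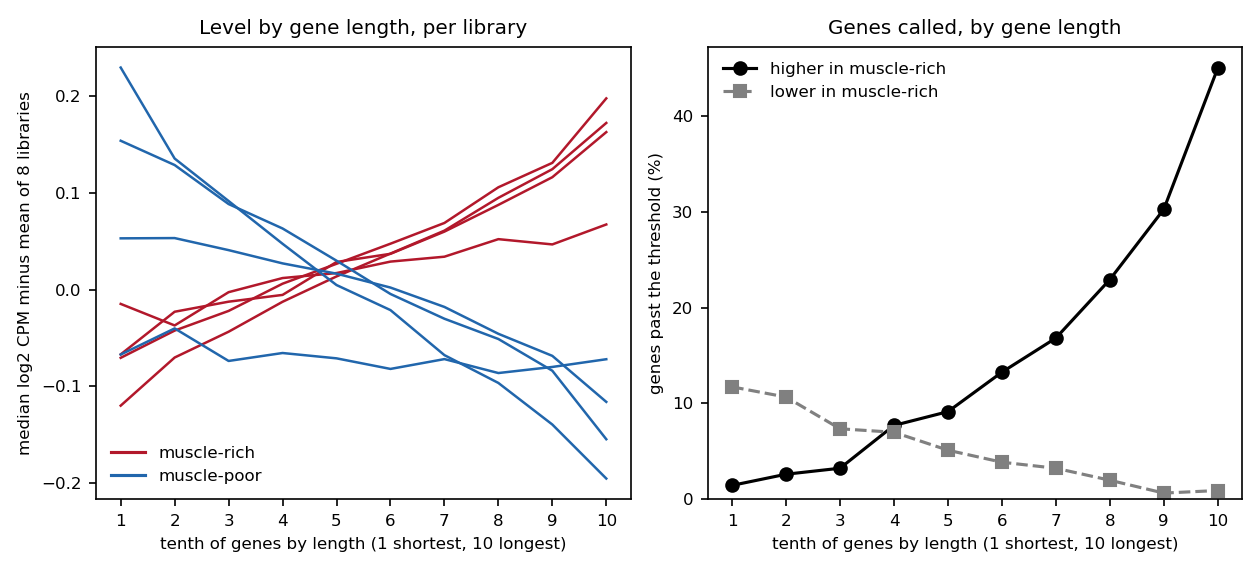
Left, median log2 CPM of genes in each of 10 equal bins of gene length (1 shortest, 10 longest) less the mean of the 8 CIN tumour libraries, 1 line per library, red muscle-rich and blue muscle-poor. Right, percent of genes in each bin past the adjusted threshold; in the longest 10% 45.0% were called higher and 0.894% lower in the muscle-rich libraries.

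Library totals ran from 11561955 to 16959226 counts in muscle-rich and from 12274512 to 17937501 counts in muscle-poor libraries. The mitochondrial share of counts was 1.71% ± 0.12 and 2.00% ± 0.28 (SD, n = 4 each, two-sided exact permutation p = 0.114, adjusted over 3 measures 0.343), where 4 libraries against 4 cannot go below 0.0286. Genes detected numbered 22704 ± 1834 and 23200 ± 916 (two-sided exact permutation p = 0.714, adjusted 0.8286). The first principal component held 68.1% of the variance and placed MSI micronuclei 1 at -145, with the other 7 between -16.7 and 65.5.

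Within the free DNA libraries alone, 2 muscle-rich against 2 muscle-poor, 14 genes rose and 11 fell. Within the micronuclei libraries no gene passed (edgeR; 2145 had an unadjusted p under 0.05, and no other tool was run on these 4). The colon epithelium median was -1.03 with free DNA and -1.66 with micronuclei, the T cell medians were -0.42 and -0.85, the MHC class II medians -0.35 and -0.47, and the cell cycle medians 0.24 and 0.53. The type I interferon list had a median of 0.12 with free DNA and -0.44 with micronuclei.

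Whether a gene's difference by muscle content itself differed between the DNA forms was tested as an interaction. None of 16326 genes passed (0%; edgeR, smallest adjusted p = 0.988, 508 genes at an unadjusted p under 0.05; no other tool was run), although 970 passed when MSI micronuclei 2 was left out. The 5 genes with the smallest p are given as values only. Gbp4, an interferon-induced GTPase, had 154 and 142 CPM in muscle-rich free DNA libraries against 113 and 102 CPM in muscle-poor ones, and 84.1 and 87.0 CPM against 145 and 116 CPM with micronuclei. Trim30a and Oasl2 had interaction estimates of -0.89 and -0.84 on the log2 scale. Col5a2, a collagen chain, had -0.81, and Rps27a, a ribosomal protein fused to ubiquitin whose gene has near-identical copies that make its count uncertain, had 1.16.

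One MSI tumour library, MSI tumour CIN micronuclei 1, took no part in dividing the CIN libraries and held more skeletal muscle transcripts than any of them. Its level of Acta1, Myh4 and Myh1, in CPM of the library total, was 419, and the other 7 MSI tumour libraries had 0.771 to 14.9. It was set against the mean of those 7, as a single library with no test. Of 1738 genes that rose with muscle content in CIN tumours and could be compared, 1597 (91.9%) were higher in it, where 53.5% of all 14086 genes were. Of 705 genes that fell, 657 (93.2%) were lower in it. Against its own replicate partner alone the shares were 93.0% and 95.6%, where 52.0% of all genes were higher. That partner, MSI tumour CIN micronuclei 2, had the highest colon epithelium mean of the MSI libraries. The mean was 9.56 log2 CPM in the partner and 4.94 in the library high in muscle, so the pair also differed in colon content.

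The MSI library also had little colon epithelium, so muscle content was not the only thing that set it apart. Its mean log2 CPM of colon epithelium genes was 4.94, against 5.92 to 9.56 in the other MSI libraries. Of the lists, colon epithelium had a median log2 difference of -3.35, smooth muscle -1.69, B and plasma cells -1.11, MHC class II -0.19 and cell cycle 0.51. All 15 macrophage genes compared were higher in it, with a median of 0.39. T cell genes had the other sign from CIN tumours, with a median of 0.17 and 15 of 20 higher. The T cell mean log2 CPM of this library, 2.90, lay within the 2.39 to 3.04 of the other MSI libraries. The longest 10% of genes had a median difference of 0.17 and the shortest -0.0401. On the measure used for single libraries, the longest 10% less the shortest was 0.180 in it. Low muscle content went with like values in other MSI libraries, 0.218 in MSI tumour MSI micronuclei 2 and 0.132 in MSI tumour CIN free 1, whose summed marker levels were 2.65 and 0.771 CPM of the library total. MSI tumour CIN free 1 was also near the library high in muscle for several lists. Its mean log2 CPM was 7.11 for macrophages, 7.32 for cell cycle, 4.54 for smooth muscle and 2.78 for B and plasma cells. The library high in muscle had 7.02, 7.42, 4.88 and 2.61. For colon epithelium they lay further apart, at 5.92 and 4.94.

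**Figure D5:**
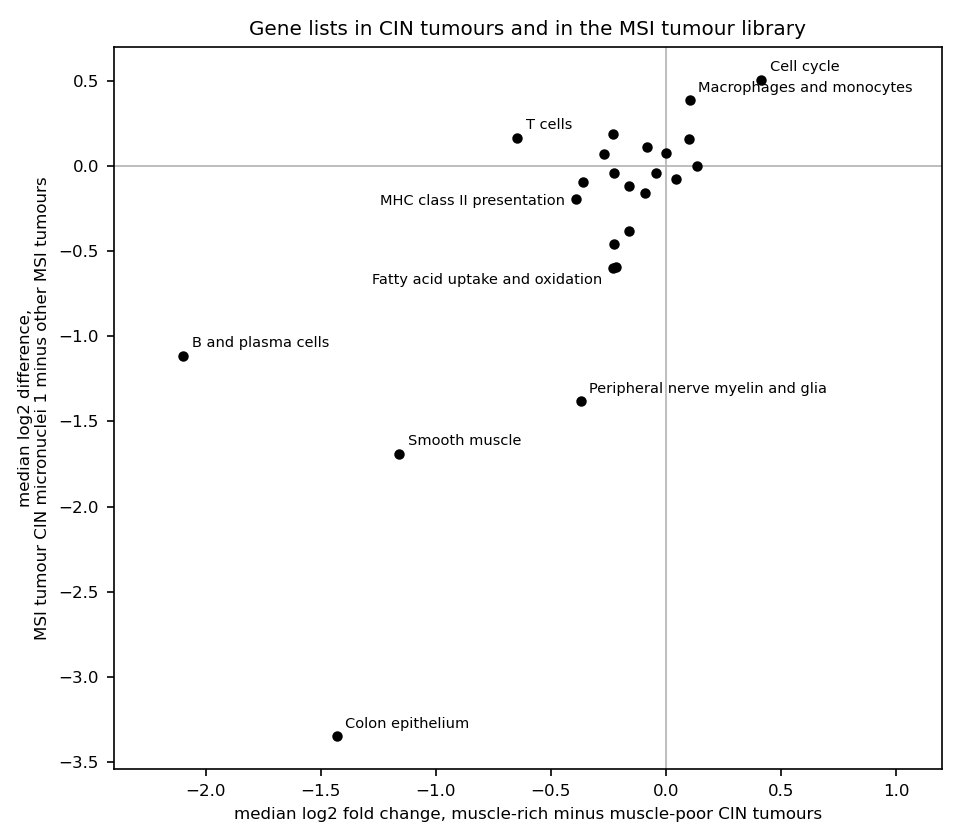
Each point is a gene list with at least 5 members in both comparisons. The horizontal axis is the median log2 fold change of muscle-rich minus muscle-poor CIN tumour libraries and the vertical axis the median log2 difference of MSI tumour CIN micronuclei 1 minus the mean of the other 7 MSI libraries; colon epithelium stood at -1.43 and -3.35, and T cells at -0.65 and 0.17.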

How the data were processed

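Gene expression was measured by poly-T selected RNA sequencing. The authors deposited raw counts per gene and FPKM values for 16 libraries. The tools named in the submitters' processing notes, beside the build GRCm39, include fastp, featureCounts 1.5.0-p3 and HISAT2 2.0.5. The coordinates in the table were those of GRCm38, identical for 53499 of 54409 gene identifiers shared with GENCODE M21. FPKM values as deposited by the authors are printed where levels of different genes are set side by side. No source used here gives the strand setting, so overlapping genes on opposite strands cannot be told apart. Beside the 16 libraries, 4 columns matched no sample and were not used.

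From the counts, the 8 CIN tumour libraries were fitted in edgeR 4.0.16 (R 4.3.3) with TMM scaling, filterByExpr, robust quasi-likelihood and Benjamini-Hochberg adjustment at 0.05. Levels are CPM with TMM factors. DESeq2 1.42.0 was an alternative, and the fit was tested on simulated data. Totals were 11561955 to 17937501 counts, and the common dispersion corresponded to a coefficient of variation of 0.244. For genes of high count the spread between libraries thus limited precision more than counting did. Genes with few counts were limited by counting as well. The 41 gene lists held 609 genes, 608 of them in the table. The members and lists were chosen with earlier results of these data known. Named genes were, by a fixed rule, up to 5 per muscle list by level, the 10 largest rises and falls that passed without overlap at a mean log2 CPM of at least 1, up to 4 called members per other list (2 where none passed), the 5 smallest interaction p-values and 25 genes whatever their result. Any others are said to be named after their values were seen, or are list members counted as called. Gene length was smoothed by loess (span 0.5) for the offset, which was added after seeing the data, as was that offset without MSI micronuclei 1. The 2 libraries of each group differed by more than counting noise (chi-square per degree of freedom 21.6 to 48.2).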

Additional observations from a re-analysis of the deposited data

Results flagged for a closer look

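Of 124 sets of 4 library values examined, 13 held 1 library that stood apart from the other 3 by Dixon's criterion, which chance passes in about 1 of 20. In the muscle-rich group CIN tumour MSI micronuclei 1 was the library in 5 of them. Its mean log2 CPM was 2.83 for colon epithelium (others 6.84 to 7.53), 2.06 for fat cell genes (3.75 to 3.90), -0.69 for B and plasma cells (2.33 to 2.92) and -0.67 for mast cells (1.28 to 1.54). Mmrn1 was at 0 CPM in it, against 0.565 to 0.651 CPM in the others. MSI free 2 had a T cell mean log2 CPM of 2.55 (others 2.01 to 2.08) and an Mmp8 level of 7.14 CPM (3.08 to 3.70), and MSI micronuclei 2 had a Cmya5 level of 1.63 CPM (4.45 to 4.88).

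In the muscle-poor group CIN free 1 was the only library with Myh4, at 2.50 CPM, and with Myh1, at 0.380 CPM. CIN micronuclei 2 stood apart for the fat cell list at 4.53 (others 3.74 to 3.85), for Hipk2 at 10.8 CPM (5.32 to 5.95) and for Ppp1r14a at 11.6 CPM (7.10 to 7.66).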

How the results depend on the processing

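The count of 1820 higher and 784 lower genes depended on the model and on single libraries. Higher and lower genes numbered 2 and 0 with the labelled group as a covariate, 14 and 11 in free DNA libraries only, 0 and 0 in micronuclei libraries only, 23 and 18 in all 16 libraries, and 1307 and 332 with DNA source as a covariate. They numbered 1331 and 281 with colon epithelium as a covariate, 2115 and 1735 by DESeq2's own test, 833 and 595 with the gene length offset, and 656 and 445 with that offset and without MSI micronuclei 1. Leaving out 1 library at a time gave 790 to 1918 higher and 177 to 937 lower genes; the lowest totals, 981 and 1051, came without CIN free 2 and without MSI free 1. The DESeq2 size factors gave 1592 and 932, no filter on low counts 1555 and 947, and totals without muscle genes 1820 and 763. The deviations of same-numbered libraries from their group means correlated between -0.409 and 0.459. These values cannot decide whether the numbers pair the libraries, since among free DNA libraries the division is the same as that by replicate number. With the replicate block 2598 genes were higher and 2280 lower. The interaction count of 0 became 277 with no filter on low counts, and leaving out 1 library gave 0 to 970, where the lone library left is assumed to vary like the others and the 970 came without MSI micronuclei 2. Leaving out 1 library moved the difference in totals to between -1147380 and 746114 counts, in mitochondrial share to between -0.394 and -0.169 points and in genes detected to between -957 and 337. Of the other results under the alternatives 2298 kept their side of the threshold, 617 lost it, 39 passed it, 55 moved and none changed sign past the threshold. In each case where no value above bears on it, the cause was not tested. Transcripts near 0 in 1 group, such as Myh7 or Pax7, are limited by depth.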
